A study of Drosophila melanogaster with 27 samples.

Results

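The genes described here encode the immune-induced short peptides of Drosophila melanogaster that the table of head transcripts lists under the symbol IM followed by a number. They were chosen by symbol alone, and 7 of the 11923 genes of the table qualified: IM1, IM2, IM3, IM4, IM14, IM23 and IM33. No row of the table carries a symbol that starts with Bom. In the current annotation IM1, IM2, IM3 and IM23 are the Bomanins BomS1, BomS2, BomS3 and BomBc1, and IM4 and IM14 are the Daisho genes Dso1 and Dso2. IM33 has kept its name. A further 8 Bomanins stand in the table under CG numbers, do not meet the symbol rule, and are given separately as the rest of that family. Baramicin genes were left out, and IM18 was not analysed here.

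Immune-induced molecules were found as peptides that appear in the fly's blood, the hemolymph, after infection. Bomanins are secreted peptides made mainly by the fat body when the Toll pathway is active, and flies that lack the main Bomanin cluster are sensitive to fungi and to Gram-positive bacteria. A short Bomanin (BomS) holds little more than the shared Bomanin motif, a tailed Bomanin (BomT) carries an extension, and a bicipital Bomanin (BomBc) holds the motif in duplicate. The Daisho peptides are also Toll-induced and act against certain filamentous fungi.

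The series has 27 samples in 9 groups of 3 and compares diets, flies whose fat body overexpresses Lsp2 or Rheb with their controls, and ages. The 6 libraries used here are from 50-day-old (old) and 3-day-old (young) Oregon-R females, a wild-type strain, with 3 libraries per age and the other 21 samples not analysed here. The labels name no transgene at either age, and the flies were kept at 25 °C on standard food, also called CD in the labels, so that the groups differ in the labels only by age. Each library came from polyadenylated RNA of 20 pooled heads, and the labels call the 3 libraries of a group biological triplicates. Whole heads were used, so a transcript's level is an average over brain, eye, fat body, muscle and blood cells. Fewer cells of a type and less RNA per cell cannot be told apart in such samples.

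Values are read as FPKM, that is, fragment numbers corrected for transcript length and for the total of the library. Sequencing depth is unknown, because the table holds no counts and its low values fell on no common step, so precision rests on the 3 libraries of each age. The libraries summed to 504504 to 539645 FPKM at 50 days and to 427992 to 502587 FPKM at 3 days. Markers of neurons, photoreceptors and glia were detected in all 6 libraries: the 8 such genes, elav, brp, nSyb, ninaE, trp, trpl, repo and para, summed to 13370 to 17160 FPKM at 50 days and 15450 to 18120 FPKM at 3 days, most of it ninaE. Changes are given as log2(scaled FPKM + 1), 50-day minus 3-day, with a standard error (SE) and a limma p adjusted over the 8742 genes whose mean reached 1 FPKM. A gene is said to rise or fall if that p was under 0.05. Of the 8 markers just named 0 rose and 4 fell: brp by 0.61 (adjusted p 0.0149), trpl by 0.52 (0.0198), para by 0.52 (0.0108) and elav by 0.40 (0.00369). The part of these shifts in the changes of the peptide genes was not tested.

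Old heads held more of these transcripts than young heads. Of the 7 genes, all of which passed the filter on low values, 6 rose, 0 fell and IM3 did not pass the test. In the background, 39.1% of the 8742 genes tested passed, with 18.3% that rose and 20.8% that fell. The 6 that rose did so by at least 2-fold, which 4.67% of all genes tested did. The median change of the 7 genes was 1.69 on the log2 scale, a 3.23-fold difference, and the median of all genes tested was -0.0011. In the same 6 genes every 50-day library exceeded every 3-day library, which held for 26.0% of all genes tested.

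**Figure D1:**
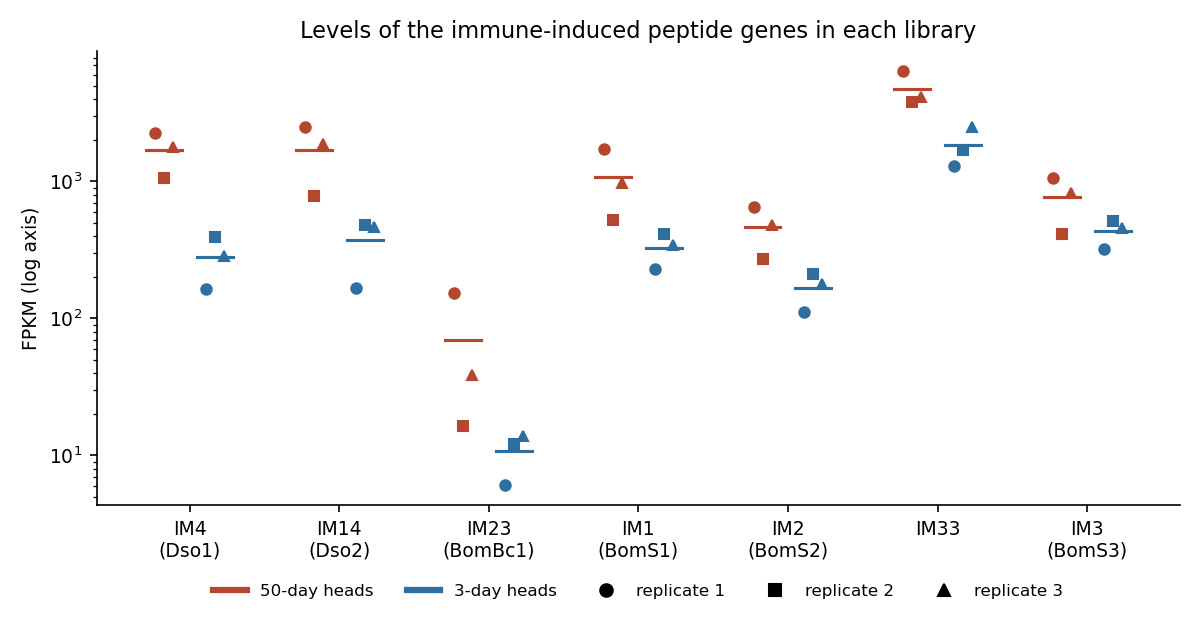
Deposited FPKM (log axis) of the 7 genes in each 50-day library (red) and 3-day library (blue), with a bar at the mean of 3. In 6 genes the ages do not overlap, and in IM3 the lowest 50-day value, 410 FPKM, lies among the 3-day values of 323 to 516 FPKM.

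Together the 7 transcripts reached 14667, 6839 and 10090 FPKM in 50-day replicates 1, 2 and 3, against 2280, 3710.5 and 4249 FPKM in 3-day replicates 1, 2 and 3. The lowest old library lay above the highest young library. The sums averaged 10532 ± 3933 FPKM at 50 days and 3413 ± 1018 FPKM at 3 days (SD, n = 3 each), a ratio of 3.09. An exact two-sided permutation test over the libraries gave p = 0.1, the smallest that 3 against 3 allows. These sums were 2.72%, 1.36% and 1.96% of all FPKM at 50 days, against 0.533%, 0.824% and 0.845% at 3 days.

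The Bomanins among them are 4 genes of a compact cluster on chromosome arm 2R. In the BDGP6 annotation IM23 (BomBc1, FBgn0034328) spans 2R positions 18382704 to 18383235 on the minus strand. On the plus strand, IM1 (BomS1, FBgn0034329) spans 18383949 to 18384378, IM2 (BomS2, FBgn0025583) spans 18386602 to 18387030, and IM3 (BomS3, FBgn0040736) spans 18387895 to 18388734. Each of the 4 genes has 2 exons, and the annotation has no other gene overlapping any of them.

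IM1, a short Bomanin, had 1729, 521 and 971 FPKM in the 50-day libraries, against 228, 415 and 342 FPKM in the 3-day libraries. All old values were above all young ones, and 50-day replicate 1 was the highest. Its change was 1.69 (SE 0.43, adjusted p 0.0158), and without 3-day replicate 1 the call was lost (1.48, adjusted p 0.0562). IM2, another short Bomanin, stood lower, at 654, 269 and 479 FPKM at 50 days, against 110, 211 and 177 FPKM at 3 days. The ages again did not overlap. It rose by 1.55 (SE 0.36, adjusted p 0.0103), a call kept in all 15 alternative fits.

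IM3, also a short Bomanin, had 1054, 410 and 826 FPKM in the 50-day libraries and 323, 516 and 454 FPKM in the 3-day libraries. The ages overlapped through 50-day replicate 2, which lay below 2 of the 3 young libraries. The change was 0.85 (SE 0.35, 95% interval 0.038 to 1.67) and did not pass the test (adjusted p 0.0904). Without 50-day replicate 2 it was 1.27 and passed (adjusted p 0.00853), the only 1 of 15 alternative fits in which it did. Since short Bomanins resemble each other, and the handling of reads shared between genes is not given in the sources used here, the split of reads among IM1, IM2 and IM3 is uncertain.

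IM23, the bicipital Bomanin of the set, had the lowest level and the widest spread. Its values were 153, 16.5 and 38.6 FPKM at 50 days, against 6.14, 12.1 and 13.9 FPKM at 3 days. The ages did not overlap, but 50-day replicate 2 exceeded the highest young library by only 1.24 times in scaled values. The coefficient of variation was 106% at 50 days and 37.9% at 3 days. Its change of 2.19 (SE 0.72, 95% interval 0.54 to 3.84) passed narrowly (adjusted p 0.0422). The call was kept in 7 of 15 alternative fits. It was lost without 50-day replicate 1, where the change dropped to 1.30 (adjusted p 0.0514), without 50-day replicate 3 (2.35, adjusted p 0.0627), and without 3-day replicate 1 (1.89, adjusted p 0.125), replicate 2 (2.29, adjusted p 0.0841) or replicate 3 (2.40, adjusted p 0.0669).

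The Daisho genes lie side by side elsewhere on 2R, with 1070 bases between them. IM4 (Dso1, FBgn0040653) spans 20868496 to 20869321 on the minus strand, and IM14 (Dso2, FBgn0067905) spans 20870392 to 20870678 on the plus strand. IM4 had 2263, 1065 and 1774 FPKM in the 50-day libraries, against 163, 391 and 287 FPKM in the 3-day libraries. The lowest old library was 2.90 times the highest young one in scaled values, the widest gap of the 7 genes. IM4 rose by 2.73 (SE 0.37, adjusted p 0.0011), the largest change of the 7 and the 50th highest of all 8742 genes tested, and its call was kept in all 15 alternative fits, at 2.41 to 3.05.

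IM14 had 2477, 781 and 1857 FPKM at 50 days, against 166, 479 and 467 FPKM at 3 days. The ages did not overlap, and 3-day replicate 1 lay well below the other young libraries. IM14 rose by 2.30 (SE 0.52, adjusted p 0.00992), with 1.83 to 2.81 when any 1 library was left out. IM4 stood at 0.914, 1.36 and 0.955 times IM14 in old heads and at 0.978, 0.816 and 0.615 times in young heads, ranges that overlap. The exact two-sided permutation p of this ratio was 0.3.

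IM33 (FBgn0031561), a secreted peptide with a Kunitz-type protease inhibitor domain, lies on chromosome arm 2L at 3696218 to 3696658 on the minus strand. It was the most abundant of the 7 genes in every library. Its level was 6336, 3777 and 4144 FPKM in the 50-day libraries, against 1283, 1687 and 2508 FPKM in the 3-day libraries. By mean level it was the 9th most abundant gene of the table at 50 days and the 19th at 3 days. The ages did not overlap, and 3-day replicate 3 was the highest young library. IM33 rose by 1.51 (SE 0.32, adjusted p 0.00754), and the call was kept in all 15 alternative fits. Without IM33, the other 6 genes summed to 8330, 3062 and 5946 FPKM at 50 days and to 997, 2023 and 1741 FPKM at 3 days, a ratio of 3.64.

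**Figure D2:**
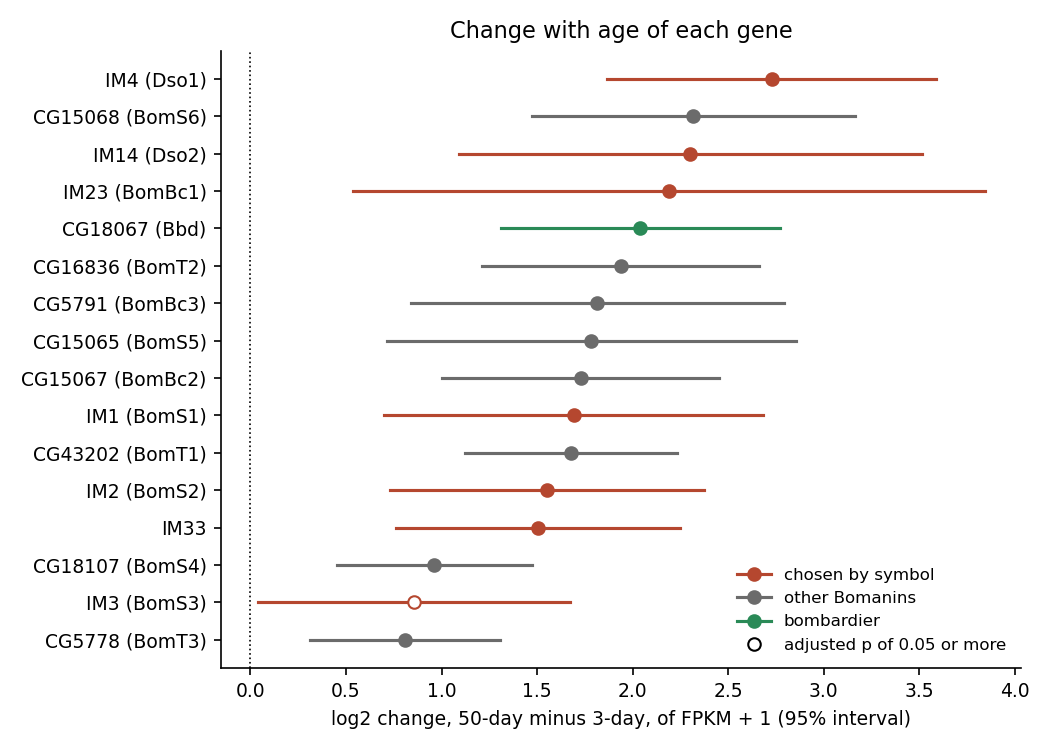
Log2 change (50-day minus 3-day, of scaled FPKM + 1) with its 95% interval for the 7 genes (red), the 8 other Bomanins (grey) and bombardier (green). Every estimate lies above 0, from 0.81 for CG5778 to 2.73 for IM4, and the open circle marks IM3, which did not pass the test.

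The genes shared their order of libraries at 50 days, but at 3 days only the lowest library. In all 7, 50-day replicate 1 was the highest of its age, replicate 3 came next and replicate 2 was the lowest, an order that 8.0% of all genes tested had. Replicate 1 exceeded replicate 2 by 1.68 times in IM33 and by up to 9.28 times in IM23, whereas the median of all genes tested was 0.913 times. In all 7, 3-day replicate 1 was the lowest of its age, as it was in 37.8% of all genes tested. The highest young library was replicate 2 in IM1, IM2, IM3, IM4 and IM14, and replicate 3 in IM23 and IM33. The labels name no batch, and what sets 50-day replicate 2 apart was not tested. Leaving out 1 library at a time moved the number of the 7 genes that rose between 4 (without 3-day replicate 1) and 7 (without 50-day replicate 2), and all changes stayed positive.

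**Figure D3:**
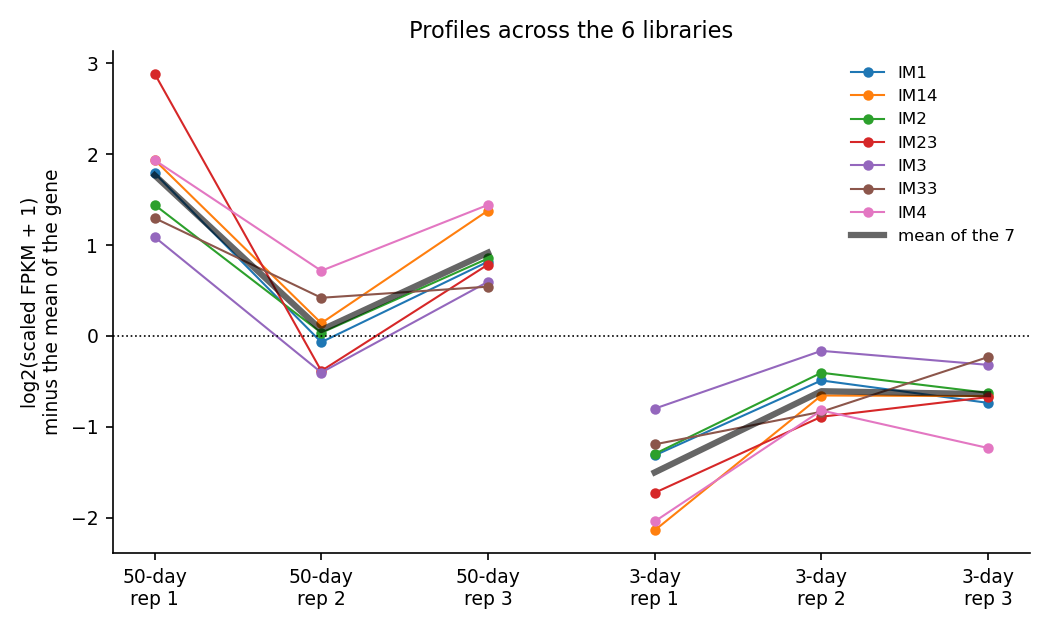
Each gene's log2(scaled FPKM + 1) minus its own mean over the 6 libraries (y axis), by library (x axis), with the mean of the 7 genes in black. Lines join the values of a gene and imply no order of replicates. In all 7 genes 50-day replicate 1 is the highest old library and 3-day replicate 1 the lowest young library.

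IM1 followed the mean profile of the 7 genes most closely, with a root-mean-square distance of 0.12 log2 units over the 6 libraries, and IM2 came next at 0.18. IM23 and IM3 were the farthest, at 0.516 and 0.512, against a median of 1.09 for all genes tested. The mean profile includes each of the 7 genes and is higher at 50 days. Distances under that median are therefore partly built in and are no separate evidence of a shared profile. Among genes outside the 7, the 5 nearest to that profile were CG5791 (BomBc3) at 0.087, CG15067 (BomBc2) at 0.178, CG18067 (bombardier) at 0.232, CG15065 (BomS5) at 0.267 and CG16836 (BomT2) at 0.274. Of these 5, 4 are Bomanins, and bombardier encodes a secreted protein that flies need for short Bomanins to be present in the hemolymph.

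Ratios within a library do not depend on how the libraries are scaled. IM4 stood at 2.15, 2.60 and 2.15 times IM3 in the 50-day libraries, against 0.504, 0.7575 and 0.633 times in the 3-day libraries, the largest shift of the 21 pairs of the 7 genes. IM3 was thus more abundant than IM4 in every young library and less abundant in every old library. IM4 had the largest and IM3 the smallest change of the 7, so the rank of this pair follows from that. IM2 stood at 0.620, 0.656 and 0.580 times IM3 at 50 days and at 0.342, 0.410 and 0.391 times at 3 days. IM1 and IM2, in contrast, kept overlapping ratios of 2.65, 1.94 and 2.03 at 50 days and 2.06, 1.96 and 1.93 at 3 days. In 10 of the 21 pairs the ratio did not overlap between the ages, against 56.4% of all pairs of genes tested, so the count is no higher than the background. Each of the 10 had an exact two-sided permutation p of 0.1, the smallest possible, and 0.21 after Benjamini-Hochberg adjustment over the 21 pairs.

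**Figure D4:**
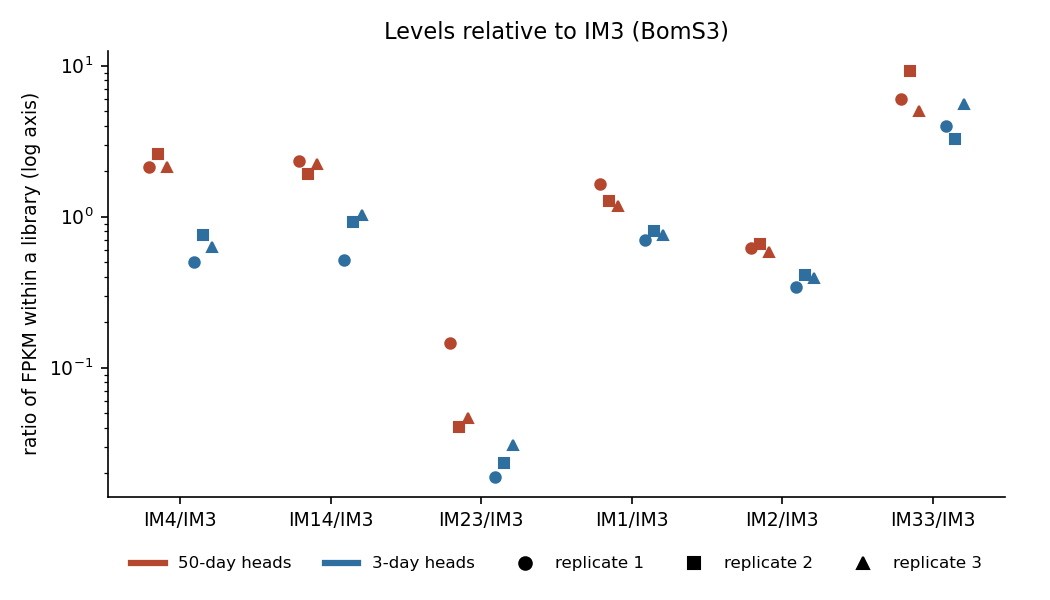
FPKM of 6 of the genes divided by that of IM3 in the same library (log axis), for 50-day (red) and 3-day (blue) heads. The ratio is higher in every old library for all but IM33, where 50-day replicate 3, at 5.02, lies below 3-day replicate 3, at 5.53.

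As a share of the summed FPKM of the 7 genes, IM4 made up 15.4%, 15.6% and 17.6% in the 50-day libraries, against 7.14%, 10.5% and 6.75% in the 3-day libraries. IM3 made up 7.19%, 5.996% and 8.19% at 50 days, against 14.2%, 13.9% and 10.7% at 3 days. Neither share overlapped between the ages. IM4 and IM3 had the largest and the smallest change of the 7, so the opposite moves of their shares follow from that choice. No background was computed for such shares. The share of IM33, at 43.2%, 55.2% and 41.1% at 50 days and 56.3%, 45.5% and 59.0% at 3 days, did overlap.

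The 8 Bomanins listed under CG numbers all rose, and in each of them every old library exceeded every young one. The highest in level was CG15068 (BomS6, FBgn0040733), a short Bomanin, with 4521, 2301 and 3043 FPKM at 50 days, against 429, 739 and 1008 FPKM at 3 days. It also had the largest change of the 8, at 2.32 (SE 0.37, adjusted p 0.00206). CG15065 (BomS5), another short Bomanin, had 963, 428 and 576 FPKM at 50 days, against 93.7, 303 and 253 FPKM at 3 days (change 1.78, adjusted p 0.0174), and without 50-day replicate 1 its call was lost (adjusted p 0.058).

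CG18107 (BomS4) had 413, 295 and 317 FPKM at 50 days, against 146, 182 and 244 FPKM at 3 days, and rose by 0.96 (SE 0.22, adjusted p 0.0103), under 2-fold. Its gene overlaps that of CG15067 (BomBc2) on the opposite strand, at 2R positions 18384824 to 18384911 only. Whether reads were assigned by strand is not given in the sources used here, so reads from that stretch cannot be told apart with certainty. CG15067 rose by 1.73 (SE 0.31, adjusted p 0.00382).

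The tailed Bomanins differed in level. CG16836 (BomT2) had 564, 281 and 432 FPKM at 50 days, against 85.1, 107 and 164 FPKM at 3 days, and rose by 1.94 (SE 0.31, adjusted p 0.00233). CG43202 (BomT1) stood far lower, at 60.4, 32.5 and 50.8 FPKM at 50 days, against 12.5, 18.5 and 14.4 FPKM at 3 days, and rose by 1.68 (SE 0.24, adjusted p 0.00135).

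CG5778 (BomT3) and CG5791 (BomBc3) lie outside the cluster, next to each other on 3R, at 22085374 to 22086397 and 22087075 to 22088501. CG5778 had 287, 165 and 260 FPKM at 50 days, against 131, 140 and 155 FPKM at 3 days. Its change of 0.81 (SE 0.22, adjusted p 0.0195) was the smallest of the 12 Bomanins, and the call was lost in 4 of the 6 fits with a library left out. Its adjusted p was 0.0594 and 0.0592 when 3-day replicate 1 or 2 was absent, and 0.0524 and 0.0544 when 50-day replicate 1 or 3 was absent. CG5791 had 91.5, 27.9 and 62.9 FPKM at 50 days, against 10.6, 19.8 and 19.2 FPKM at 3 days, and rose by 1.82 (SE 0.42, adjusted p 0.0109).

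Across all 12 Bomanins, 11 rose and IM3 did not pass the test, with a median change of 1.71. By structural class, 5 of 6 short, 3 of 3 tailed and 3 of 3 bicipital Bomanins rose, with medians of 1.62, 1.68 and 1.82. Differences between classes were not tested. All 12 had 50-day replicate 1 as their highest and 50-day replicate 2 as their lowest old library.

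**Figure D5:**
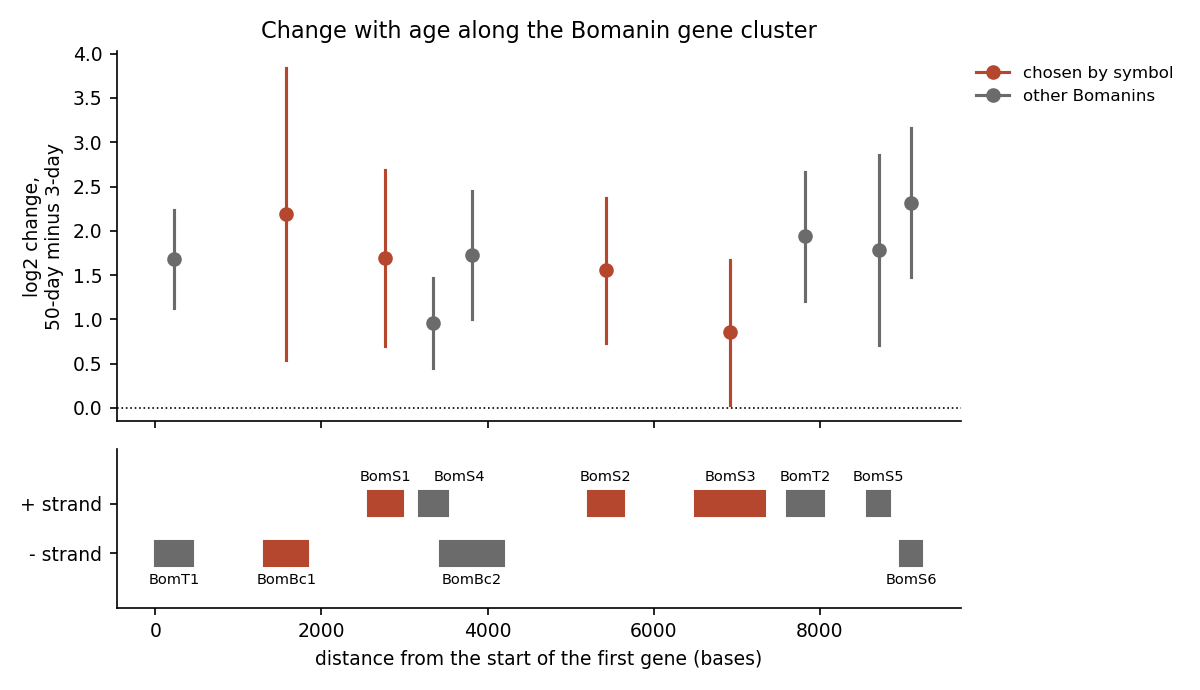
Log2 change with its 95% interval (upper panel) of the 10 Bomanins of the 2R cluster by distance from the start of the first gene, in bases, and the genes on each strand (lower panel). The cluster spans 9237 bases, and BomS3 (0.85) and BomS4 (0.96) have the smallest changes, while BomS6 (2.32), at the far end, has the largest.

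The genes of the cluster are short, and so are the other members: the exons of the 7 genes add up to 223 bases in IM14 and to 769 bases in IM3. Among the 714 genes tested with exons of up to 769 bases, 26.6% rose and the median change was 0.13. The part of fragment length in the levels of such short transcripts was not tested. Each library's trimmed-mean factor also moves changes. With every library brought to an equal sum, which shifted the median of all genes to -0.26, the median of the 7 genes was 1.41 and 6 of them still rose. Of all 8755 genes tested in that fit, 734 rose and 3125 fell.

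The other genes of the Toll pathway were also followed. Of 13 genes for microbe recognition and the protease cascade that activates the Toll ligand, 12 passed the filter, 11 rose and 0 fell. The list includes nec, an inhibitor of that cascade, which rose by 0.88 (adjusted p 0.00385). PGRP-SD, a recognition protein for bacterial peptidoglycan, had 67.4, 51.3 and 65.5 FPKM at 50 days, against 6.78, 8.07 and 6.04 FPKM at 3 days (change 3.07). PGRP-SA, which senses Gram-positive bacteria, rose by 1.75 (adjusted p 0.00106), and the proteases Hayan and SPE, of which SPE cleaves the ligand Spätzle, by 1.29 and 1.24. The transcript of the ligand, spz, rose by 0.27 (adjusted p 0.026). That call was lost with unscaled values (adjusted p 0.219) and with libraries rescaled to equal sums (change 0.0025, adjusted p 0.99). It was also lost without 3-day replicate 1 (0.0619), and without 50-day replicate 2 (0.0659) or 3 (0.101). With equal sums 9 of the 12 rose and 1 fell: GNBP1 no longer passed (adjusted p 0.14), and the protease gene grass fell by 0.52 (0.0219). It also fell, by 0.37 (adjusted p 0.0395), without 50-day replicate 3. Among all 8755 genes tested with equal sums, 734 rose and 3125 fell.

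Of 10 genes listed for the receptor, its intracellular pathway and the secreted protease inhibitor Spn27A, 5 rose, 1 fell and 4 did not pass. The changes were small next to those of the peptides: Dif, the transcription factor that carries the adult Toll response, rose by 0.55, Spn27A by 0.54, the adaptor Myd88 by 0.43 and the kinase gene pll by 0.30. Tl, the receptor itself, fell by 0.24 (adjusted p 0.0324) and is named after its values were seen. None of the 5 rises kept its call once libraries were rescaled to equal sums, where the change of tub turned to -0.00081 and 3 genes fell: Tl by 0.51 (adjusted p 0.00537), Pli by 0.43 (0.0178) and cact by 0.37 (0.0488). In that fit 3125 of all 8755 genes tested fell, and the median change of all genes was -0.26, so these falls are no result particular to the list. The call of Tl was lost when 3-day replicate 1 (adjusted p 0.0899) or 2 (0.0971), or 50-day replicate 2 (0.126) or 3 (0.0961), was left out. That of pll was lost in 5 of those 6 fits, all but the one without 3-day replicate 2.

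Of 7 other genes listed with the Toll-induced products, 5 passed the filter, 3 rose and 0 fell. Mtk, the antifungal peptide metchnikowin, had 7928, 3440 and 8735 FPKM at 50 days, against 22.9, 128 and 23.5 FPKM at 3 days. It rose by 7.30, and by 8.10 without 3-day replicate 2. Drs, the antifungal drosomycin, had 1032, 103 and 650 FPKM at 50 days, against 21.5, 76.5 and 31.5 FPKM at 3 days. Its rise of 3.53 was 4.54 without 50-day replicate 2 and 2.82 without 50-day replicate 1. Bombardier (CG18067, FBgn0034512) had 1197, 564 and 857 FPKM at 50 days, against 163, 298 and 213 FPKM at 3 days, and rose by 2.04 (SE 0.32, adjusted p 0.00189). CG33470 (BaraA1) changed by 0.23 (adjusted p 0.781) and Drsl5 by -0.082 (adjusted p 0.718), and neither passed. CG33470 had 7.62, 4.25 and 6.16 FPKM at 50 days, against 2.32, 17.7 and 2.94 FPKM at 3 days, and in the fit without 3-day replicate 2 it rose by 1.004 (adjusted p 0.0183). With libraries rescaled to equal sums Drsl5 fell by 0.37 (adjusted p 0.0351).

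Peptides governed mainly by the Imd pathway, the other humoral immune pathway, were near 0 at 3 days in many cases. Of 12 such genes 11 rose, with a median change of 5.66, and DptA changed by 8.73, CecA1 by 7.98, DptB by 6.99 and Dro by 6.91. In 6 of the 12 every 3-day library was under 1 FPKM, and CecA2 and CecB were listed at 0 in all of them. These 6 passed the filter only through their 50-day libraries, so a rise was close to fixed in advance for them. The same holds for AttB and CecA1, whose 3-day means were also under 1 FPKM. AttB had 0.305, 1.68 and 0 FPKM in 3-day replicates 1, 2 and 3, and CecA1 had 0, 1.38 and 0.769 FPKM. With a mean of at least 5 FPKM required, 9 were tested and 8 rose. That mean was again taken over all 6 libraries, so genes such as CecB still passed only through their 50-day libraries. The stricter filter therefore does not remove this limit. The added 1 FPKM also holds these changes down, and their order depends on it. With 0.1 FPKM added the median was 7.11 and the order was CecA1 (9.67), CecC (9.18), DptA (9.14) and CecB (8.24). Def, the peptide defensin, did not pass (change -0.63), but fell by 0.89 (adjusted p 0.0456) with libraries rescaled to equal sums and by 0.63 (0.0239) with the replicate block. In 11 of the 12, 50-day replicate 3 was the highest old library, as in 46.6% of all genes tested, while in all 7 immune-induced peptides it was 50-day replicate 1, as in 18.0% of all genes tested. 50-day replicate 2 was the lowest in all 12 and in all 7, as in 17.5% of all genes tested. Of the 5 other genes tested from the list of Toll-induced products, 50-day replicate 1 was highest in 3 and replicate 3 in 2, Mtk and Drsl5. Drsl5 and CG33470, which is among the 3, did not pass the test for a change with age. Of 11 genes for Imd signalling and its negative regulators 7 rose and 0 fell, with PGRP-SC2, pirk, Rel and PGRP-LC changing by 5.69, 1.40, 0.98 and 0.77. Among the 11, PGRP-SC2, pirk and PGRP-LB are negative regulators. PGRP-SC2 was under 1 FPKM in every 3-day library and passed the filter only through its 50-day libraries. The change of PGRP-SC2 was 7.90 with 0.1 FPKM added and 4.69 to 6.75 with a library left out. With equal sums 4 of the 11 rose and 1 fell: imd (adjusted p 0.0674), Dredd (0.202) and PGRP-LB (0.0575) no longer passed, and PGRP-LE fell by 0.41 (0.028). The call of PGRP-LB was also lost without 3-day replicate 2 (adjusted p 0.0528). For comparison, 734 of all 8755 genes tested with equal sums rose and 3125 fell. Whether the pathways differed in their order of libraries was not tested.

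Cell type markers moved as well. Of 9 fat body markers, 8 were in the table and 7 were tested, of which 5 rose and 0 fell. The rises were unequal: Lsp2 by 6.12, apolpp by 2.03, Mtp by 1.26, bmm by 0.91 and Apoltp by 0.55. Fbp1 (1.12) and FASN1 (-0.20) did not pass. The 8 in the table summed to 2437, 2197 and 1855 FPKM in 50-day replicates 1, 2 and 3. Of these sums apolpp made up 1656, 1129 and 1022 FPKM. The 3-day sums were 675, 692 and 737 FPKM in replicates 1, 2 and 3. By gene, 50-day replicate 1 was the highest old library in 4 of the 7, and replicates 2 and 3 were the lowest in 3 each. Of 7 blood cell markers tested, 0 rose and 3 fell, PPO1 by 1.22, PPO2 by 1.504 and Pxn by 0.76. The other 4, NimC1 (0.54), Sr-CI (0.54), Hml (0.29) and eater (0.14), had positive changes that did not pass, and the median of the 7 was 0.14. He did not reach the filter on low values. Its values were 1.31, 1.52 and 0.929 FPKM at 50 days, against 0.437, 0.707 and 0.463 FPKM at 3 days. With no such filter 8 blood cell markers were tested, of which 1 rose and 3 fell. The sum of the 8 blood cell markers in the table was 56.2, 50.9 and 68.4 FPKM at 50 days, against 81.0, 124 and 84.9 FPKM at 3 days. Of 5 muscle markers tested, 0 rose and 4 fell. The 6 ovary markers in the table summed to at most 1.25 FPKM and the 6 gut markers to at most 3.46 FPKM in any library. The part of the fat body, blood cell and muscle shifts in the changes of the peptide genes was not tested.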

How the data were processed

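RNA of female fly heads was sequenced, and 6 columns of the deposited table were matched to samples by library name, with 0 columns left over. The authors deposited a value per gene that is not a whole number and is read here as FPKM; TPM over a longer gene list cannot be told apart from it. The tools fastp, HISAT2 and HTSeq and the build BDGP6 are named, without versions or roles, per the submitters' processing notes. The scaling step, annotation, strand setting and treatment of shared reads are not given in the sources used here. Of the 1400 to 1487 low genes per library pair, at most 7 shared a ratio within 0.001 natural log units, so no fragment counts were recovered.

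Libraries were multiplied by trimmed-mean factors (30% of ratios and 5% of levels trimmed at each end) of 1.11, 1.01 and 1.00 for 50-day and 0.9725, 0.948 and 0.968 for 3-day replicates. The filter was a mean scaled value of 1 FPKM, and limma 3.58.1 in R 4.3.3 modelled log2(value + 1) by age, with a mean-variance trend and Benjamini-Hochberg adjustment over 8742 genes. The fit was also run on simulated data with independent noise and far fewer changed genes than were called here. Its outcome is not given, and no result rests on it. Values in the text are as deposited; changes use scaled values. Exact permutation tests used scipy 1.17.1. Genes named are all members of the symbol rule, the other Bomanins, up to 4 per fixed pathway list by size of change among those that passed, and the 5 nearest profiles. Outside that rule spz, nec, grass, GNBP1, Tl, tub, Pli, cact, CG33470, Drsl5, CecB, CecC, CecA2, Def, imd, Dredd, PGRP-LB, PGRP-LE and the cell type markers were named with their values in view. The members and lists were chosen with earlier results of these data known. Symbols and positions come from the BDGP6.54 annotation and RefSeq synonyms. Alternatives changed the pseudocount, filter, scaling, trend, replicate block and libraries included. No sequences are shown.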

Additional observations from a re-analysis of the deposited data

How the results depend on the processing

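The 7 genes kept positive changes in each of the 15 alternative fits run. Outside the fits that left out a library, the number that rose was 6, or 5 with no filter on low values, no variance trend or the replicate block, each through the loss of IM23 (adjusted p 0.0837, 0.0502 and 0.0613); the cause was not tested. Leaving out 1 library gave 4 to 7 of the 7 genes, a median change of 1.23 to 2.15, 2619 to 3718 of all genes called (3418 with all libraries) and 2.48 to 3.63 as the ratio of summed levels. That ratio was 3.38 in scaled values, an alternative chosen after seeing the data. With the replicate block 2702 genes were called in all. Equal replicate numbers did not pair the samples: deviations of same-numbered libraries correlated at -0.209, -0.104 and -0.235, and the labels tie no number to a shared source. The split of calls was 1604 higher and 1814 lower, but 1138 and 2271 with unscaled values and 734 and 3125 with libraries rescaled to equal sums. In the rescaled fit the change of tub was -0.00081 (adjusted p 0.996). The unknown depth and 3 libraries per age limit the precision of every value.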
